A study of Homo sapiens with 2 samples.

Results

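The matrix metalloproteases (MMP), the ADAM and ADAMTS proteases, the ADAMTS-like proteins (ADAMTSL) and the tissue inhibitors of metalloproteases (TIMP) were described in prostate cancer cells carrying a hairpin against NRP2. Members were chosen by gene symbol alone, as any symbol made of 1 of these family names, a number and at most 1 further letter, which gave 76 of the 26475 symbols in the tables. The shNRP2 library came from C4-2B ENZR cells carrying a lentiviral hairpin against the coding region of NRP2, and the shControl library from C4-2B ENZR cells carrying a non-targeting hairpin, labelled WT. C4-2B ENZR, an established line of human prostate cancer, is resistant to enzalutamide, a blocker of the androgen receptor, and both cultures were stably selected with antibiotic and grown in 20 µM of the drug. The design gives 1 library per group, so replicate spread is unknown, conditions were not tested against each other, and each difference has no replicate check and is one between these 2 libraries alone.

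MMPs cut collagens and other matrix proteins and, like most ADAM and ADAMTS proteases, hold a catalytic zinc ion between histidines. ADAMs sit in the cell membrane and release the outer parts of other membrane proteins, a step called shedding, whereas ADAMTS proteases are secreted and act on proteoglycans, procollagens and von Willebrand factor. TIMPs plug the active site with their amino-terminal end. In prostate tumours these proteins are studied mainly for invasion, bone lesions and growth factor release.

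The coding sequence of the zinc site is shown for the proteases on which the results turn, because most of the family's proteases encode it. Its eighth codon differs between some ADAMTS members and the rest. Each line gives the 33 bases that encode the site, 5′ to 3′, with the codons of the zinc-binding histidines in capitals, from GENCODE 29 coding transcripts.
ADAM10: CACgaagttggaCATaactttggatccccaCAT
ADAM15: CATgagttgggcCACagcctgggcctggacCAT
ADAM17: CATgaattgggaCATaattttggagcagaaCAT
MMP14: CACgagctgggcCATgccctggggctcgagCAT
MMP15: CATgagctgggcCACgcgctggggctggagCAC
ADAMTS2: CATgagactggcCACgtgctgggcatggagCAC
ADAMTS1: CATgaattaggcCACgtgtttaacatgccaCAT
ADAMTS15: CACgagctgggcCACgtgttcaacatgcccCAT
The eighth codon encodes glycine in the first 6 of these lines and is aac, for asparagine, in ADAMTS1 and ADAMTS15. In GRCh38, which is not the hg19 build of the tables, the ADAM15 site lies in exon 11 at chr1:155056995-155057027 on the plus strand. The ADAM17 site lies in exon 11 at chr2:9510078-9510110 on the minus strand. The MMP14 and MMP15 sites both lie in exon 5 on the plus strand, at chr14:22843283-22843315 and chr16:58040563-58040595. The remaining sites are split by an intron, in ADAM10 between exons 9 and 10 (chr15:58627881-58633225, minus), in ADAMTS2 between exons 7 and 8 (chr5:179154177-179154830, minus), in ADAMTS1 between exons 3 and 4 (chr21:26841143-26841867, minus) and in ADAMTS15 between exons 2 and 3 (chr11:130461612-130462109, plus).

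The inhibitors are shown by the 30 bases that start at their first pair of cysteine codons, in capitals, since this end of the mature TIMP enters the protease's active site.
TIMP2: TGCagcTGCtccccggtgcacccgcaacag
TIMP1: TGCaccTGTgtcccaccccacccacagacg
TIMP3: TGCacaTGCtcgcccagccacccccaggac
The TIMP2 stretch lies in exon 1 at chr17:78924981-78925010 on the minus strand. That of TIMP1 lies in exon 2 at chrX:47583485-47583514 and that of TIMP3 in exon 1 at chr22:32802071-32802100, both on the plus strand of GRCh38.

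The tables hold TMM-scaled read counts relative to library size (CPM), from which whole reads were recovered, 22992304 in the shNRP2 library and 21052178 in the shControl library. NRP2, the targeted gene, had 7 reads (0.330 CPM) in shNRP2 cells and 20 reads (0.974 CPM) in shControl cells, 2.95-fold lower with a counting interval from 1.20 to 8.26. It averaged 0.652 CPM, under the 1 CPM asked of compared genes. Its log2 change of -0.57, on CPM + 1, stayed inside the 1.5-fold threshold used below. All 9 prostate epithelial markers were measured, and their levels summed to 3138 CPM in shNRP2 cells and 2850 CPM in shControl cells. Within them KLK2 and KLK3, targets of the androgen receptor, were at 92.5 and 41.0 CPM in shNRP2 cells, against 16.4 and 5.60 CPM in shControl cells, and FOXA1 was at 302 CPM in shNRP2 cells and 453 CPM in shControl cells. Markers of other cells were low: 7 fibroblast markers summed to 36.8 CPM in shNRP2 cells and 46.7 CPM in shControl cells, of which COL1A1 gave 32.5 CPM in shNRP2 cells and 41.5 CPM in shControl cells, and DCN was at 0 in both libraries. The 5 leukocyte markers summed to 10.9 CPM in shNRP2 cells and 7.35 CPM in shControl cells, mostly from CD68. The 4 endothelial markers summed to 3.87 CPM in shNRP2 cells and 4.09 CPM in shControl cells. Their part in the results was not tested, and in bulk RNA fewer cells of a type and less RNA per cell cannot be told apart.

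Most of the family had few or no reads in these cells, and so did many other genes. Of 76 members, 31 averaged 1 CPM or more in the 2 libraries and were compared, and 45 lay under that filter, 16 of them at 0 reads in both libraries. The 16 were ADAM3A, ADAM5, ADAM6, ADAM18, ADAM29, ADAM30, ADAMTS8, ADAMTS10, ADAMTS16, ADAMTS18, ADAMTS19, MMP8, MMP20, MMP23B, MMP26 and TIMP4. Of all 26475 symbols, less 28 that were left out, 13316 passed the same filter and 18158 had reads in either library. A count of 0 allows up to 3 reads, which is 0.141 CPM in the shNRP2 library and 0.146 CPM in the shControl library. The whole family summed to 1534 CPM in shNRP2 cells and 1326 CPM in shControl cells, which is 0.141% of the shNRP2 total and 0.129% of the shControl total. The 5 members with most reads, ADAM15, TIMP2, MMP15, ADAM10 and ADAM9, held 73.8% of the family's CPM in shNRP2 cells. In shControl cells the 5 members with most reads, the same genes, held 73.0%.

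**Figure D1:**
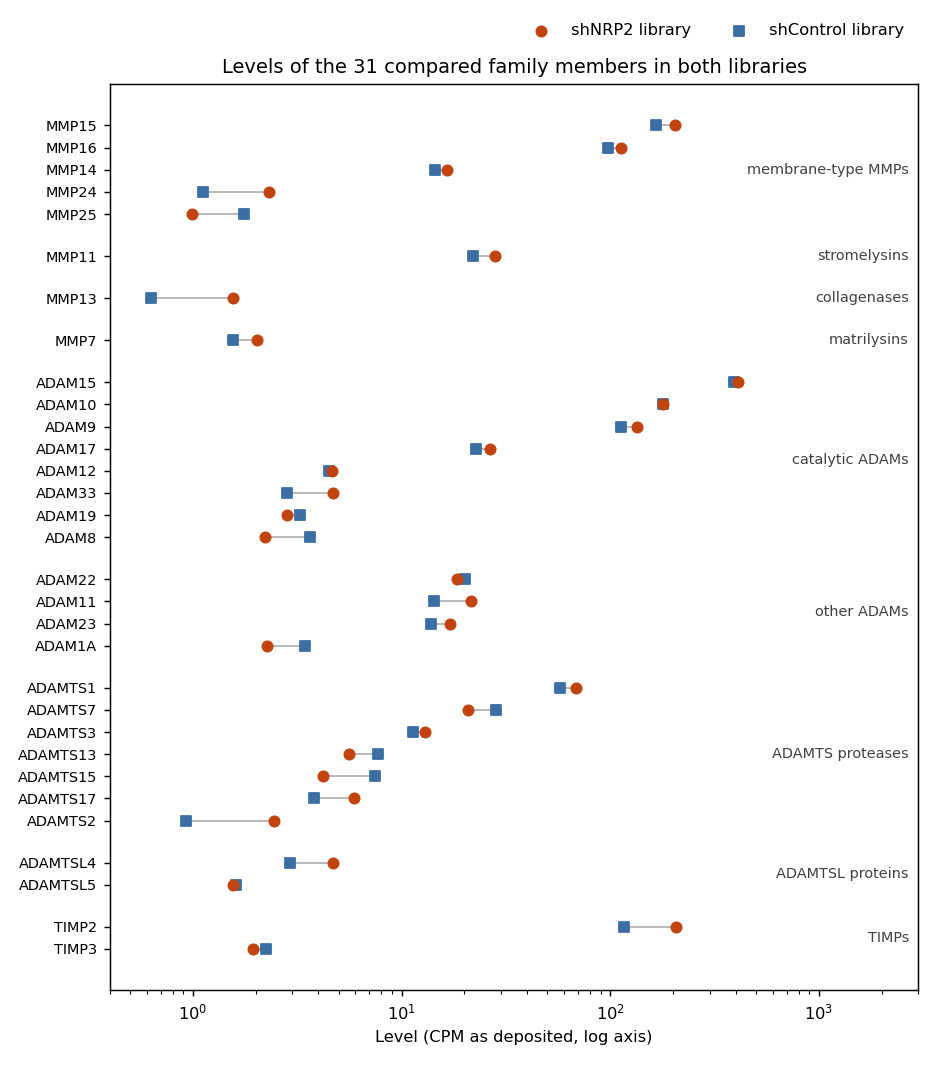
Levels of the 31 compared members in CPM on a log axis, grouped by role, with circles for the shNRP2 library and squares for the shControl library (1 library each). ADAM15 lies at 408 CPM in shNRP2 cells and 393 CPM in shControl cells. The gap between the symbols is wide for TIMP2, ADAMTS2, MMP13 and MMP24, higher in shNRP2 cells, and for ADAMTS15 and MMP25, lower there.

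Per length of transcript, ADAM15 stood highest in the family. Divided by the longest or the median length of its coding transcripts, its level was 138 or 146 CPM per kb in shNRP2 cells and 133 or 140 CPM per kb in shControl cells. TIMP2 came to 56.4 or 60.6 CPM per kb in shNRP2 cells and 31.9 or 34.2 CPM per kb in shControl cells, and MMP15, with 1 coding transcript, to 48.2 and 39.2 CPM per kb. The place of ADAM10 in this order was not settled, because its coding transcripts differ widely in length: its level was 15.7 or 128 CPM per kb in shNRP2 cells, and the same to 3 digits in shControl cells.

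The threshold for a member to count as higher or lower was 1.5-fold on log2(CPM + 1), a log2 change of 0.585, and this scale understates changes of low genes. By this rule 4 of 31 compared members were higher in shNRP2 cells, TIMP2, ADAMTS2, MMP13 and MMP24, where 5.78% of all 13316 genes compared were. Only ADAMTS15 was lower, 1 of 31, where 3.57% of all genes were. The shares depend on level: 1 of 15 members that averaged 10 CPM or more passed 1.5-fold, where 5.55% of such genes did, and 4 of 16 members between 1 and 10 CPM, where 21.2% of such genes did. ADAMTS2 and MMP13 reached 1 CPM only in shNRP2 cells and MMP25 only in shControl cells, so the filter itself favours a difference for them. The median log2 change of the compared members was 0.21, and that of all genes compared was 0.03.

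Small differences beyond counting error were common among members, as they were among all genes. The 95% counting interval of the CPM ratio lay above 1 for 16 of 31 members, where it did for 32.7% of all genes, and below 1 for 6, where it did for 24.0%. These intervals are exact conditional binomial ones from the recovered reads and cover counting error only, not the spread between cultures. With both libraries set to equal totals, the calls were 4 higher and 2 lower, with ADAM8 added, and the split over all genes turned from 769 higher and 476 lower to 606 higher and 671 lower.

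**Figure D2:**
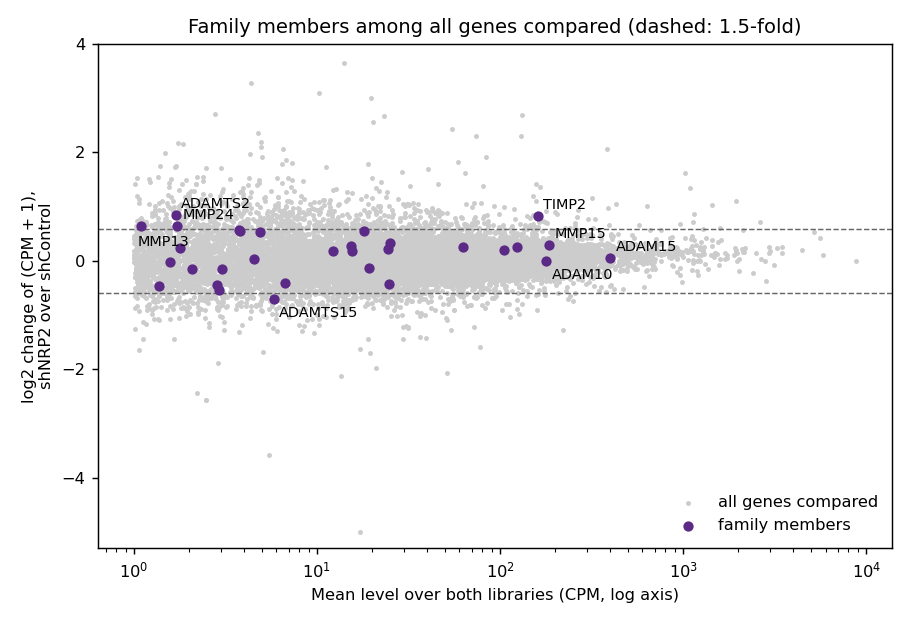
The log2 change of (CPM + 1), shNRP2 over shControl, against the mean level of each of 13316 genes compared, with the 31 family members in colour and dashed lines at 1.5-fold. TIMP2 is the only member above 10 CPM past a dashed line, and ADAM10 and ADAM15 lie near 0.

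Among the inhibitors, TIMP2 had far more reads than the others, and it was the member with most reads among those past 1.5-fold. TIMP2, a secreted inhibitor that also bridges MMP14 and the inactive form of MMP2 at the cell surface, had 4370 reads (206 CPM) in shNRP2 cells and 2391 reads (116 CPM) in shControl cells. It was 1.77-fold higher (1.68 to 1.86), with a log2 change of 0.82. TIMP3, an inhibitor bound to the matrix that also blocks ADAM17, was at 1.93 CPM in shNRP2 cells and 2.24 CPM in shControl cells, from 41 and 46 reads, and its counting interval included no difference (ratio 0.863, 0.553 to 1.34). TIMP1 lay under the filter, with 13 reads in shNRP2 cells and 3 in shControl cells, a ratio of 4.20 (1.15 to 23.0). TIMP4 had no read in either library.

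The partners in TIMP2's known role at the membrane were present unevenly. MMP14, a membrane-anchored collagenase that activates MMP2, was at 16.6 CPM in shNRP2 cells and 14.5 CPM in shControl cells, from 351 and 297 reads, and its interval included no difference (ratio 1.14, 0.978 to 1.34). MMP2, a gelatinase that cuts type IV collagen of basement membranes, had 4 reads in shNRP2 cells and 5 in shControl cells. MMP9, the other gelatinase, had 3 reads in shNRP2 cells and 1 in shControl cells. No difference in either gelatinase was detectable at this depth.

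Membrane-type MMPs gave most of the MMP reads, and MMP15 and MMP16 were slightly higher in shNRP2 cells. MMP15 was at 205 CPM in shNRP2 cells and 166 CPM in shControl cells, 1.23-fold higher (1.18 to 1.29). MMP16 was at 113 CPM in shNRP2 cells and 97.9 CPM in shControl cells, 1.16-fold higher (1.09 to 1.23). Both cut matrix at the cell surface and can activate MMP2, and neither passed 1.5-fold. MMP24, a membrane-type protease best known from the nervous system, had 49 reads (2.31 CPM) in shNRP2 cells and 23 reads (1.12 CPM) in shControl cells, 2.06-fold higher (1.23 to 3.55). Its antisense gene MMP24-AS1, no member, was listed at 189 CPM in shNRP2 cells and 124 CPM in shControl cells, 1.52-fold higher (1.45 to 1.60). No exon bases shared by the pair were found in GENCODE 29, but MMP24 shares 162 with AL121753.2 on the opposite strand, a gene that the tables do not list. Since no source used here states whether counting used the strand, the value of MMP24 is uncertain. The same limit applies to other compared members that share exon bases with unlisted genes on the opposite strand. They are ADAMTS17 (431 bases), TIMP2 (367), ADAMTSL4 (189), ADAM10 (136), ADAMTSL5 (128), MMP16 (118) and ADAMTS3 (70).

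The other membrane-type genes had few reads. MMP25, which is held in the membrane by a lipid anchor, was at 0.990 CPM in shNRP2 cells and 1.75 CPM in shControl cells, and its counting interval reached almost to no difference (1.77-fold lower, 1.01 to 3.19). MMP25 shares 725 exon bases with its antisense gene MMP25-AS1, at 4.20 CPM in shNRP2 cells and 3.94 CPM in shControl cells, and is uncertain for that reason. MMP17, also lipid-anchored, had 17 reads in shNRP2 cells and 0 in shControl cells, at least 5.49-fold higher against a floor of 3 reads, and lay under the filter.

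Of the secreted MMPs only MMP11 had more than 50 reads in either library. MMP11, a stromelysin that is activated inside the cell, was at 28.0 CPM in shNRP2 cells and 22.1 CPM in shControl cells, 1.27-fold higher (1.12 to 1.44). MMP13, a collagenase, had 33 reads (1.56 CPM) in shNRP2 cells and 13 reads (0.633 CPM) in shControl cells, 2.46-fold higher (1.26 to 5.09). MMP7, the matrilysin of glandular epithelia, was at 2.03 CPM in shNRP2 cells and 1.56 CPM in shControl cells, from 43 and 32 reads, with an interval that included no difference (ratio 1.30, 0.805 to 2.13). MMP12, the macrophage elastase, had 0 reads in shNRP2 cells and 9 in shControl cells. Against the floor of 3 reads MMP12 was 3.10-fold lower, and its counting interval started at a smaller difference, 2.04-fold lower.

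MMP7 and MMP13 mark the ends of a run of 9 neighbouring MMP genes on chromosome 11, in RefSeq order MMP7, MMP20, MMP27, MMP8, MMP10, MMP1, MMP3, MMP12 and MMP13. The whole run held 105 reads (4.95 CPM) in shNRP2 cells and 93 reads (4.53 CPM) in shControl cells, and 2 of its 9 genes were compared. The stromelysins MMP3 and MMP10 had 12 and 14 reads in shNRP2 cells, against 12 and 21 in shControl cells. The collagenase MMP1 had 3 reads in shNRP2 cells and 4 in shControl cells.

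More of the MMPs that encode a furin site passed the filter than of those that do not. Furin-type proteases cut after arginine, any residue, lysine or arginine, and arginine, and some MMP proenzymes carry this stretch and are activated on their way out of the cell. Of 23 MMPs with the zinc site in their longest coding sequence, 10 encoded such a stretch before it, and 6 of these were compared, MMP11, MMP14, MMP15, MMP16, MMP24 and MMP25. The 10 summed to 367 CPM in shNRP2 cells and 304 CPM in shControl cells. Of the other 13, MMP7 and MMP13 were compared, and the 13 summed to 5.33 CPM in shNRP2 cells and 4.87 CPM in shControl cells. Of all 26475 symbols, less 28 that were left out, 13316 passed the filter. The 6 compared furin-site genes are, but for MMP11, the membrane-type genes described above, so the site and the class cannot be told apart here. A stretch of these letters is a description of the sequence and not a measured cleavage.

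**Figure D3:**
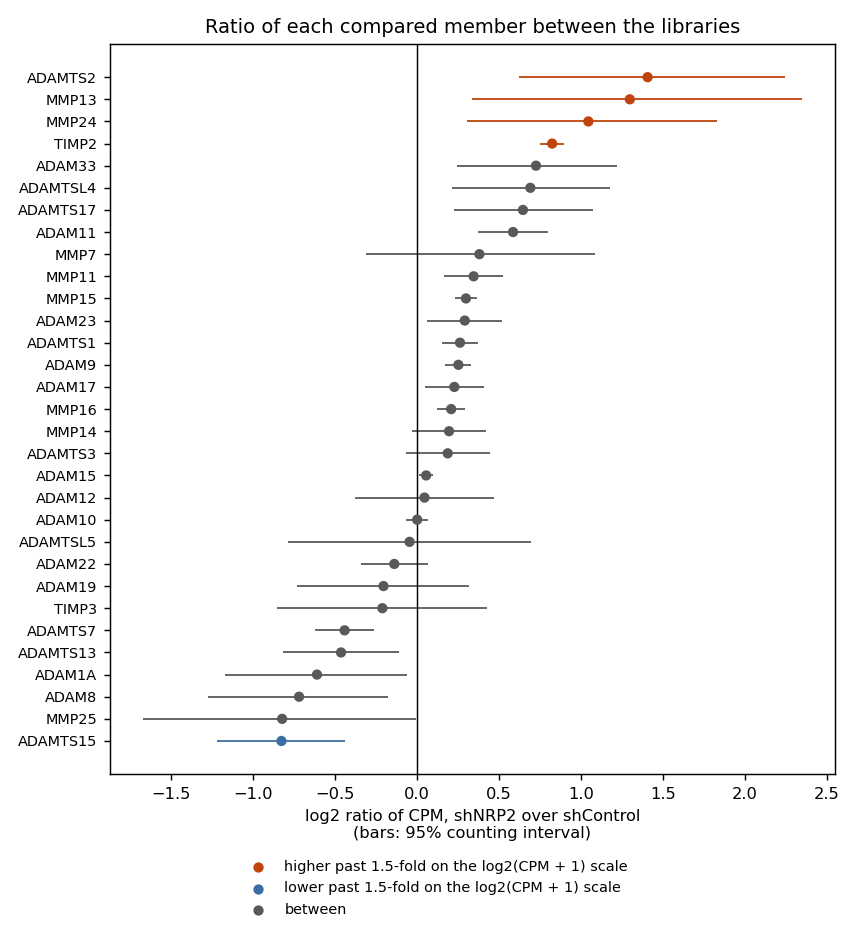
Log2 ratio of CPM, shNRP2 over shControl, for each of the 31 compared members, with 95% counting intervals as bars, ordered by ratio; colours mark members past 1.5-fold on the log2(CPM + 1) scale. The interval of TIMP2 is narrow (1.68 to 1.86 as a ratio), while those of ADAMTS2, MMP13 and MMP24 are wide.

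The ADAM sheddases ADAM10, ADAM15 and ADAM9 had many reads each, and only ADAM9 of these 3 was slightly higher in shNRP2 cells under every scaling tried. ADAM10, which sheds Notch receptors, E-cadherin and the amyloid precursor protein, was at 179 CPM in shNRP2 cells and 179 CPM in shControl cells, from 3794 and 3674 reads. Its ratio was 1.00 with an interval from 0.956 to 1.05, and its log2 change was 0.00, against -0.08 with equal library totals and -0.07 with quantile normalization. ADAM15, an adhesion-linked protease of epithelia, was at 408 CPM in shNRP2 cells and 393 CPM in shControl cells, 1.04-fold higher (1.01 to 1.07). The sign of the difference in ADAM15 depended on the scaling, with a log2 change of 0.06 on the deposited scale, -0.03 with equal library totals and -0.02 with quantile normalization. ADAM9, a sheddase overexpressed in many carcinomas, was at 134 CPM in shNRP2 cells and 113 CPM in shControl cells, 1.19-fold higher (1.13 to 1.26).

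ADAM17, the sheddase of TNF and of several EGF receptor ligands, was at 26.5 CPM in shNRP2 cells and 22.6 CPM in shControl cells, 1.17-fold higher (1.03 to 1.33). Its exons share 1257 bases with IAH1 on the opposite strand in GENCODE 29, and IAH1 was at 30.0 CPM in each library, so part of these reads could belong to either gene. None of the 8 compared catalytic ADAMs passed 1.5-fold on the log2(CPM + 1) scale. Of all genes, 5.55% of those at 10 CPM or more did, and 21.2% of those between 1 and 10 CPM. ADAM33, known from airway smooth muscle, was at 4.67 CPM in shNRP2 cells and 2.82 CPM in shControl cells, 1.65-fold higher as a plain ratio (1.18 to 2.33), with a log2 change of 0.57 just inside the threshold. ADAM8, a protease of leukocytes and invasive tumours, was at 2.22 CPM in shNRP2 cells and 3.65 CPM in shControl cells, 1.65-fold lower (1.13 to 2.43). ADAM12 and ADAM19, both linked to growth factor shedding, were at 4.62 and 2.83 CPM in shNRP2 cells, against 4.48 and 3.26 CPM in shControl cells, with intervals that included no difference.

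Some members did not match the searched zinc-site pattern, and those of them with enough reads to compare were ADAMs of the nervous system. Of 62 MMP, ADAM and ADAMTS members with a coding transcript, 53 encoded the zinc-binding motif of this protease clan, searched as His-Glu-x-x-His-x-x-Gly-x-x-His with Gly or Asn at the eighth position and x any residue, and 9 did not. The 9 include ADAMTS8, which is classed with the ADAMTS proteases, so a sequence outside this pattern is not shown to lack a zinc site. Compared members outside it were ADAM11, ADAM22 and ADAM23, of which the best known act as adhesion proteins and as receptors for LGI ligands at synapses. ADAM11 was at 21.6 CPM in shNRP2 cells and 14.4 CPM in shControl cells, 1.5-fold higher (1.29 to 1.74), with a log2 change of 0.55. ADAM23 was at 17.0 CPM in shNRP2 cells and 13.9 CPM in shControl cells, 1.22-fold higher (1.04 to 1.43). ADAM22 was at 18.3 CPM in shNRP2 cells and 20.2 CPM in shControl cells, with an interval that included no difference (ratio 0.908, 0.789 to 1.05). The median log2 change was 0.21 for the 23 compared members with the motif and 0.27 for these 3. The pseudogene ADAM1A, at 2.26 CPM in shNRP2 cells and 3.46 CPM in shControl cells, shares 2129 exon bases with MAPKAPK5 on its own strand and is uncertain.

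ADAMTS proteases differed in both directions. ADAMTS15, which cuts the proteoglycans aggrecan and versican, had 89 reads (4.20 CPM) in shNRP2 cells and 153 reads (7.45 CPM) in shControl cells, 1.77-fold lower (1.36 to 2.33), with a log2 change of -0.70. ADAMTS2, which trims the amino-terminal propeptide from fibrillar procollagens, had 52 reads (2.45 CPM) in shNRP2 cells and 19 reads (0.925 CPM) in shControl cells, 2.65-fold higher (1.54 to 4.75), with a log2 change of 0.84. ADAMTS1, a protease of versican and aggrecan, was at 68.7 CPM in shNRP2 cells and 57.3 CPM in shControl cells, 1.20-fold higher (1.11 to 1.30).

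The asparagine codon printed above for ADAMTS1 and ADAMTS15 was found in 4 members in all, with ADAMTS4 and ADAMTS9, and 49 members had a glycine codon there. The 4 had no common direction. ADAMTS1 was slightly higher and ADAMTS15 lower in shNRP2 cells. ADAMTS4, an aggrecanase, had 24 reads (1.13 CPM) in shNRP2 cells and 4 reads (0.195 CPM) in shControl cells, a ratio of 5.81 (2.00 to 23.0), and lay under the filter. ADAMTS9 had 2 reads in shNRP2 cells and 3 in shControl cells.

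The other compared ADAMTS and ADAMTSL members stayed within 1.5-fold on the log2(CPM + 1) scale, though ADAMTS17 and ADAMTSL4 passed it as plain ratios. ADAMTS7, which cuts cartilage oligomeric matrix protein, was at 20.9 CPM in shNRP2 cells and 28.4 CPM in shControl cells, 1.36-fold lower (1.20 to 1.54). Its pseudogene ADAMTS7P1 was listed with 13 reads in shNRP2 cells and 0 in shControl cells, and reads of the pair may be split between them. ADAMTS13, the protease of von Willebrand factor, was at 5.61 CPM in shNRP2 cells and 7.74 CPM in shControl cells, 1.38-fold lower (1.08 to 1.76). ADAMTS17, tied to fibrillin microfibrils, was at 5.94 CPM in shNRP2 cells and 3.80 CPM in shControl cells, from 126 and 78 reads. It was 1.56-fold higher (1.17 to 2.10), with a log2 change of 0.53. ADAMTS3, a second procollagen and VEGF-C processing protease, was at 13.0 CPM in shNRP2 cells and 11.4 CPM in shControl cells, with an interval that included no difference (0.953 to 1.36). ADAMTSL4, a fibrillin-binding protein without protease activity, was at 4.72 CPM in shNRP2 cells and 2.92 CPM in shControl cells, 1.61-fold higher (1.16 to 2.26), with a log2 change of 0.54. ADAMTSL5 was at 1.56 CPM in shNRP2 cells and 1.61 CPM in shControl cells.

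The 45 members under the filter held between 0 and 35 reads over both libraries. Their counting interval excluded no difference for 4 of them, ADAMTS4, MMP17 and TIMP1, each higher in shNRP2 cells, and MMP12, lower there. The remaining members with reads, such as the procollagen protease ADAMTS14 with 7 reads in shNRP2 cells and 15 in shControl cells, and ADAM21 with 18 reads in shNRP2 cells and 10 in shControl cells, could not be told from no difference at this depth.

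Compared genes that activate these proteases or work beside them stayed within 1.5-fold. None of 14 compared activators and sheddase partners passed, where 5.78% of all genes were higher and 3.57% lower. Without the filter 1 gene of this list passed, lower in shNRP2 cells and with few reads. Counting intervals excluded no difference for 9 of the 14, 6 higher and 3 lower, where 32.7% of all genes were higher and 24.0% lower by this measure. The median log2 change of the 14 was 0.06, or -0.02 with equal library totals, where that of all genes was 0.03, or -0.05 with equal library totals. TSPAN33, a tetraspanin that regulates ADAM10, was at 70.2 CPM in shNRP2 cells and 49.4 CPM in shControl cells, 1.42-fold higher (1.31 to 1.54), and was picked for this size. BSG, the MMP inducer basigin, was at 642 CPM in shNRP2 cells and 520 CPM in shControl cells, 1.23-fold higher (1.20 to 1.27). CD9, a tetraspanin that binds ADAM17, was at 417 CPM in shNRP2 cells and 343 CPM in shControl cells, 1.22-fold higher (1.18 to 1.26). FURIN itself, picked once its value was known, was at 37.8 CPM in shNRP2 cells and 50.6 CPM in shControl cells, 1.34-fold lower (1.22 to 1.47).

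The plasminogen system, whose protease plasmin can activate several MMPs, had 5 of 9 genes compared, 2 of them higher past 1.5-fold and 0 lower, where 5.78% of all genes were higher and 21.2% of genes between 1 and 10 CPM passed in either direction. PLAU, the urokinase protease, had 41 reads (1.93 CPM) in shNRP2 cells and 12 reads (0.584 CPM) in shControl cells, 3.31-fold higher (1.71 to 6.92). PLAUR, its receptor, had 41 reads (1.93 CPM) in shNRP2 cells and 16 reads (0.779 CPM) in shControl cells, 2.48-fold higher (1.36 to 4.74). Both reached 1 CPM only in shNRP2 cells.

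**Figure D4:**
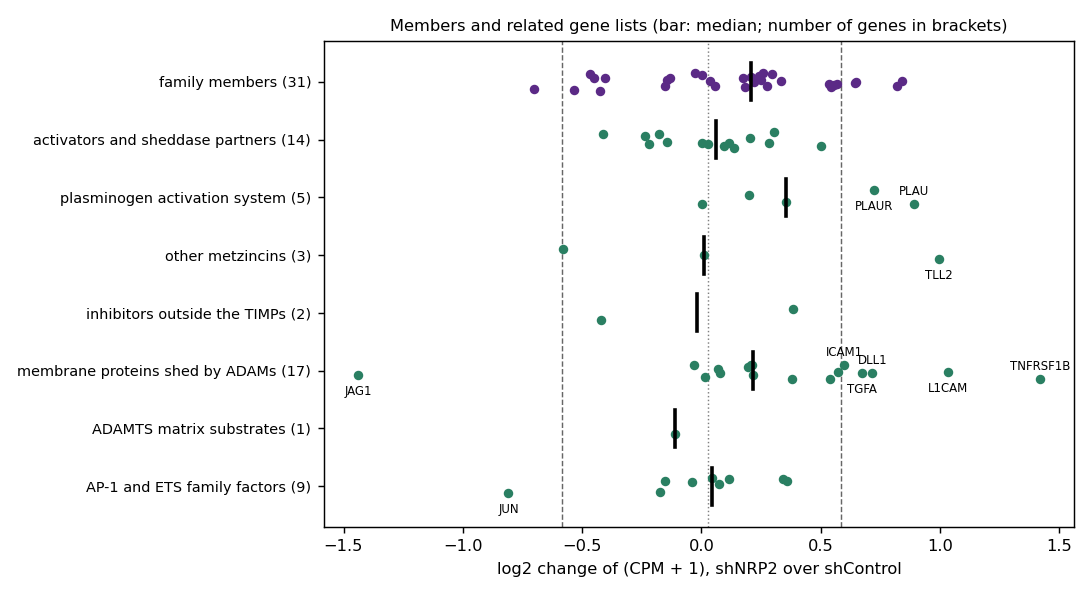
Log2 change of (CPM + 1), shNRP2 over shControl, for the compared family members and the compared genes of 7 related lists; points are genes, black bars medians, dashed lines 1.5-fold and the dotted line the median of all genes compared (0.03). The family's median lies at 0.21, and names mark list genes past 1.5-fold.

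Among related metalloproteases and inhibitors outside the family, TLL2 alone passed 1.5-fold on the deposited scale, and 2 of the related proteases did with equal library totals. On the deposited scale 5.78% of all genes were higher and 3.57% lower, and with equal library totals 4.55% were higher and 5.04% lower. Of 3 compared proteases, all of the astacin family, TLL2, a procollagen and BMP pathway protease, was at 15.9 CPM in shNRP2 cells and 7.50 CPM in shControl cells, 2.13-fold higher (1.75 to 2.59). Its relative TLL1, picked once its value was known, was at 33.4 CPM in shNRP2 cells and 50.4 CPM in shControl cells, 1.51-fold lower as a plain ratio (1.37 to 1.66), just inside the threshold. RECK, a membrane-anchored MMP inhibitor, was at 8.11 CPM in shNRP2 cells and 5.99 CPM in shControl cells, 1.35-fold higher (1.07 to 1.72). SPOCK2 was at 1.27 CPM in shNRP2 cells and 2.04 CPM in shControl cells, with an interval that included no difference (1.61-fold lower, 0.967 to 2.71).

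Of 17 compared membrane proteins that ADAMs shed, 5 were higher past 1.5-fold and 1 lower, where 5.78% of all genes were higher and 3.57% lower. Their median log2 change was 0.22, beside 0.03 for all genes. TNFRSF1B, L1CAM and DLL1 averaged between 1 and 10 CPM, where 21.2% of all genes passed in either direction. At 10 CPM or more 5.55% of all genes passed. With a pseudocount of 5 CPM 2 genes of the list passed, and at a 2-fold call 3 did. TNFRSF1B, a TNF receptor shed by ADAM17, had 77 reads (3.63 CPM) in shNRP2 cells and 15 reads (0.730 CPM) in shControl cells, 4.97-fold higher (2.84 to 9.31), and it reached 1 CPM only in shNRP2 cells. L1CAM, an adhesion molecule of neurons shed by ADAM10, was at 3.63 CPM in shNRP2 cells and 1.27 CPM in shControl cells, 2.87-fold higher (1.82 to 4.66). TGFA, an EGF receptor ligand shed by ADAM17, was at 17.9 CPM in shNRP2 cells and 10.9 CPM in shControl cells, 1.65-fold higher (1.40 to 1.96). DLL1 and ICAM1 were the other two higher genes, at 8.16 and 45.4 CPM in shNRP2 cells, against 4.58 and 29.6 CPM in shControl cells. The Notch ligand JAG1 was the lower one, at 15.5 CPM in shNRP2 cells and 43.7 CPM in shControl cells.

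The listed proteoglycan and cartilage matrix substrates of ADAMTS proteases, with VWF, had few reads. Of these 6 genes only VWF was compared, at 3.40 CPM in shNRP2 cells and 3.75 CPM in shControl cells. The list left out procollagen genes such as COL1A1, which was at 32.5 CPM in shNRP2 cells and 41.5 CPM in shControl cells. ACAN, which encodes aggrecan, had 29 reads in shNRP2 cells and 10 in shControl cells, and VCAN, which encodes versican, had 2 reads in shNRP2 cells and 3 in shControl cells. Of 9 compared AP-1 and ETS factors, which act on many MMP promoters, JUN alone passed 1.5-fold, where 5.78% of all genes were higher and 3.57% lower. JUN was at 57.8 CPM in shNRP2 cells and 102 CPM in shControl cells, 1.76-fold lower (1.64 to 1.89). The median log2 change of the 9 factors was 0.05, or -0.03 with equal library totals, where that of all genes was 0.03, or -0.05 with equal library totals. RNA levels do not measure proenzyme activation, shedding or inhibition, which were not tested.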

How the data were processed

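RNA sequencing libraries of shNRP2 and shControl cells (1 each) were compared. Per the labels, the authors deposited 1 signal value for each gene symbol, a read count relative to a TMM-scaled library size (called CPM). The submitters' processing notes name bcl2fastq 2.17, Bowtie2 2.1.0, RSEM 1.2.15, edgeR and the build hg19; which step each served, the annotation, filters and strand use: not given in the sources used here. All values (100%) were whole multiples of 1 read (0.0472 CPM in shNRP2, 0.0487 CPM in shControl) within 0.01 read, so whole reads were recovered. The columns sum to 1084413 in shNRP2 and 1024943 in shControl, so the unit is not plain CPM.

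The 28 symbols turned into dates (0.184% of shNRP2 reads and 0.181% of shControl reads) were left out. Changes are log2(CPM + 1) differences over genes that averaged 1 CPM or more, and folds are plain CPM ratios with exact conditional binomial (Clopper-Pearson) 95% intervals. Intervals and floors reflect counting error alone, because without molecular identifiers reads may be copies of 1 molecule. Calculations used Python 3.11.15 with numpy 2.4.6, pandas 2.3.3 and scipy 1.17.1, and calls and intervals were checked on simulated counts. The simulation held counting error alone, and its planted changes were larger than 1.5-fold and spared low genes. It therefore did not check 1.5-fold changes of low genes or the spread between cultures. Coding sequences came from the GENCODE 29 basic set (GRCh38), matched by symbol for 71 of 76 members, and gene order from RefSeq.

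The members and lists were chosen with earlier results of these data known. Fully described are members past 1.5-fold, the TIMPs, MMP2, MMP7, MMP9, MMP14, ADAM9, ADAM10, ADAM15, ADAM17 and the member of each role group with most reads; other members are given by values. Alternatives were other pseudocounts, filters, scalings and calls. A gene of the related lists is not reported here.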

Additional observations from a re-analysis of the deposited data

How the results depend on the processing

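No paired analysis was possible because each group holds 1 library, and for the same reason no library could be left out. The main counts were 4 members higher and 1 lower in shNRP2 cells. With a pseudocount of 0.25 CPM they were 7 and 3, and with 5 CPM they were 1 (TIMP2) and 0. Requiring a mean of 5 CPM, which left 17 members, gave 1 higher (TIMP2) and 1 lower. No filter gave 6 and 1. With equal library totals 4 were higher and 2 lower, and at a 2-fold call the counts were 0 and 0. A binomial test of each gene's reads, exact and conditional on their sum, chosen after seeing the data and adjusted by Benjamini-Hochberg at a threshold of 0.05, called 16 higher and 4 lower, and 6954 of 13316 genes in all; it compares 2 libraries, not conditions. The other alternatives left both counts as they were. The members' median of 0.21 ranged from 0.06 without a filter to 0.21. None of the 5 members past 1.5-fold changed direction under the pseudocounts and scalings, but ADAM15 (0.06) turned to -0.03 and ADAM10 (0.00) to -0.08 with equal library totals, and to -0.02 and -0.07 with quantile normalization; with a median log2 ratio of 0, ADAM10 was at -0.03. With the alternatives extended to NRP2 and the related lists after seeing the data, the log2 change of NRP2, -0.57, was -1.08 with a pseudocount of 0.25 CPM. With a pseudocount of 5 CPM it was -0.16. The plasminogen list's median of 0.35 was 0.10 without a filter and 0.20 at a mean of 5 CPM, and that of inhibitors outside the TIMPs was -0.02 and became 0.38 at a mean of 5 CPM, where 1 gene was left. Depth limits the 45 members under 1 CPM, and the absence of replicates limits every difference.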
